A study of Mus musculus with 8 samples.

Results

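The nuclear genes of respiratory complex I were followed in the hearts of mice carrying a homozygous mutation of Pus1. Members were the subunit genes whose symbol is Ndufa, Ndufb, Ndufc, Ndufs or Ndufv with a number, Ndufab1, and the assembly factor genes named Ndufaf with a number. Of 54 such symbols in the RefSeq gene table, 46 had a probe on the array, 38 of them subunits and 8 assembly factors. All 46 were well above background in 8 of 8 samples and none was saturated, so 46 of 46 passed the filter that left 21792 features in all. The 8 without a matched probe were Ndufb1, Ndufb4b, Ndufb4c and the pseudogenes Ndufa11b, Ndufa12-ps, Ndufab1-ps, Ndufs5-ps and Ndufs6b. The 7 subunits encoded by mitochondrial DNA had no matched probe and were not analysed here.

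Complex I is the first enzyme of the mitochondrial respiratory chain. Its peripheral arm holds the N module, which takes electrons from NADH, and the Q module, which passes them to ubiquinone, and its membrane arm pumps protons. Assembly factors help to build the complex and are not part of the finished enzyme. The heart depends on it for most of its ATP, and cardiac myocytes are rich in its transcripts. Pus1 encodes a pseudouridine synthase that modifies transfer RNAs of the cytosol and of the mitochondria, and loss of PUS1 in people causes a mitochondrial myopathy with sideroblastic anaemia.

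The mutant group held 4 hearts from homozygous Pus1 mutants and the wild-type group 4 hearts without the mutation, with 2 females and 2 males in each. All animals were C57BL/6J mice after 5 generations of backcrossing, aged 14 to 16 weeks, and what was changed in Pus1 is not stated in the labels. RNA came from a frozen piece that held both atrium and ventricle, and 100 ng of it was labelled with Cy3 or Cy5. Every array, of 4 in all, compared a mutant with a wild-type heart of matching sex, and hearts are numbered 1 to 4 by array. Hearts 1 and 2 were female and hearts 3 and 4 male, and mutant hearts 1 and 3 carried Cy5 while mutant hearts 2 and 4 carried Cy3.

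The altered gene was lower in every mutant heart. Pus1 stood at 7.06, 7.55, 7.25 and 7.13 in mutant hearts 1 to 4, against 9.22, 9.23, 8.93 and 9.02 in wild-type hearts 1 to 4 (normalized log2 intensity). The groups did not overlap, and the log2 ratio of mutant over wild type was -1.85 ± 0.13 (SE, 4 arrays), which is 3.61-fold lower in mutant hearts, although the adjusted p was 1.00 (limma, Benjamini-Hochberg over all features). The ratio was -2.83 with processed signals and -2.84 with the authors' deposited log2 matrix. It was called with median centring, without the array as a block and with a sex by genotype term (limma, adjusted p = 0.0244, 0.0256 and 0.00577). Where the probe lies relative to the alteration was not determined. With 4 arrays and a dye term the fit had 2 residual degrees of freedom. Probes well above background made up 44.7% to 54.6% in mutant hearts and 46.3% to 53.8% in wild-type hearts. All 8 ventricular myocyte markers were measured, and their mean level was 16.38 to 16.80 in mutant hearts and 16.40 to 16.84 in wild-type hearts. The 7 measured atrial markers varied far more, with a mean level of 9.05 to 13.94 in mutant hearts and 8.83 to 12.85 in wild-type hearts.

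Promoters of 3 members are shown because their ratios share a pattern over the arrays that is described with the spread of the hearts. In Ndufs3 the ratio on array 4 was near 0, at -0.004. The 3 promoters were also chosen because each holds a motif of a factor known to act at genes of the respiratory chain. Each is the RefSeq sequence of 300 bases in build GRCm38.p6, with 250 bases before and 50 after the start of the gene, and capitals mark the motif. Ndufa11, at chr17:56717512-56717811 on the plus strand, encodes an accessory subunit of the membrane arm and holds the NRF1 motif, a palindrome.
Ndufa11: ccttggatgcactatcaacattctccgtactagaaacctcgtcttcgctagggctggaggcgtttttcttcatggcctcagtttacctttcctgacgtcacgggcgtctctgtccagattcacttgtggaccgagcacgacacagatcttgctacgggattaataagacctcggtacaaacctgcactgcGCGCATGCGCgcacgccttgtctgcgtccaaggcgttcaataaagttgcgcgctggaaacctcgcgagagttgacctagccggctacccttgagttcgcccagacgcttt
Ndufs7, at chr10:80249199-80249498 on the plus strand, encodes the subunit with the last iron-sulfur cluster before ubiquinone and holds the YY1 motif AAGATGGC.
Ndufs7: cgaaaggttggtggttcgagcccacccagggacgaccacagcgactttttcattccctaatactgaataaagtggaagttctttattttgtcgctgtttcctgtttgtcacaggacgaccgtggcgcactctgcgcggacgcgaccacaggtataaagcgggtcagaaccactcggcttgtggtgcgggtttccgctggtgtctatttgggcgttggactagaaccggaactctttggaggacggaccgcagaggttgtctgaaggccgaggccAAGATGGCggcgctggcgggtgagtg
Ndufs3, at chr2:90904672-90904971 on the minus strand, encodes a core subunit of the Q module and holds the ETS motif CCGGAAGT, read here on the opposite strand as ACTTCCGG.
Ndufs3: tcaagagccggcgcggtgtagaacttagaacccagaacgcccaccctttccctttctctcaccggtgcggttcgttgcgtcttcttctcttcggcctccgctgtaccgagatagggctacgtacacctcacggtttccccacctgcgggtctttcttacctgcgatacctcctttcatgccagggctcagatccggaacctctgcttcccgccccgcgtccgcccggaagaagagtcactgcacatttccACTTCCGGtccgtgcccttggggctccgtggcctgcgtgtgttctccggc

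Of the 46 members, 40 had a promoter in the RefSeq table, and motifs were searched by exact letters on both strands. The NRF1 motif, in the letters capitalised in Ndufa11, was in 3 of these 40 promoters (Ndufa11, Ndufaf4 and Ndufaf5), which is 7.50%, against 0.977% of 27025 promoters. The YY1 motif was in 8 (Ndufa3, Ndufa9, Ndufaf8, Ndufb8, Ndufc1, Ndufs4, Ndufs6 and Ndufs7), which is 20.0%, against 2.88% of all promoters. The ETS motif was in Ndufs3 alone, 2.50% against 4.00%, and the oestrogen-related receptor motif AAGGTCA was in Ndufb2, Ndufb4 and Ndufs5, 7.50% against 4.66%. A TATA motif, TATAAA, was in 4 members, 10.0% against 14.2%, and the E-box CACGTG in 2, 5.00% against 7.24%. The median GC content was 59.3% in members and 52.7% in all promoters, and its part in these shares was not tested. No other motif was searched, and a match describes letters only.

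No complex I gene was called between the genotypes by the test over all features. Among the 38 subunits 0 were called, and among the 8 assembly factors 0 (limma, adjusted p under 0.05), where 0.00% of all 21792 features were called. At an unadjusted p under 0.05 the count was 0 of 46, against 1.02% of all features. The adjusted test did not call Pus1 either, so 0 calls do not show that these genes were unchanged. The 38 subunits had a median log2 ratio of -0.01 (0.09 with median centring in place of loess), with 18 above 0 and 20 below, and the 8 assembly factors a median of 0.07, with 6 above 0 and 2 below. The assembly factor median was 0.22 with median centring, 0.14 without array 2 and 0.00 without array 4. The median over all features was -0.01. The median size of the ratio, sign aside, was 0.05 in subunits, 0.11 in assembly factors and 0.07 in all features.

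The intervals give the size of difference that these 4 arrays leave under the fit with a dye term. The 95% interval of the genotype ratio lay within 1.5-fold in either direction for 36 of 38 subunits and 8 of 8 assembly factors, where 76.1% of all features had an interval that narrow. Ndufab1 and Ndufc2 were the exceptions. The dye term takes out any difference between arrays that follows the dye orientation. Spread between hearts of that form is therefore not in these intervals or in the SE of the genotype ratios. For Ndufa10 the SD of the 4 array ratios was 0.73, while the SE of the genotype ratio was 0.15. All 46 intervals held 0, and the mutant and wild-type levels overlapped for all 46, where 0.739% of all features had groups that did not.

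**Figure D1:**
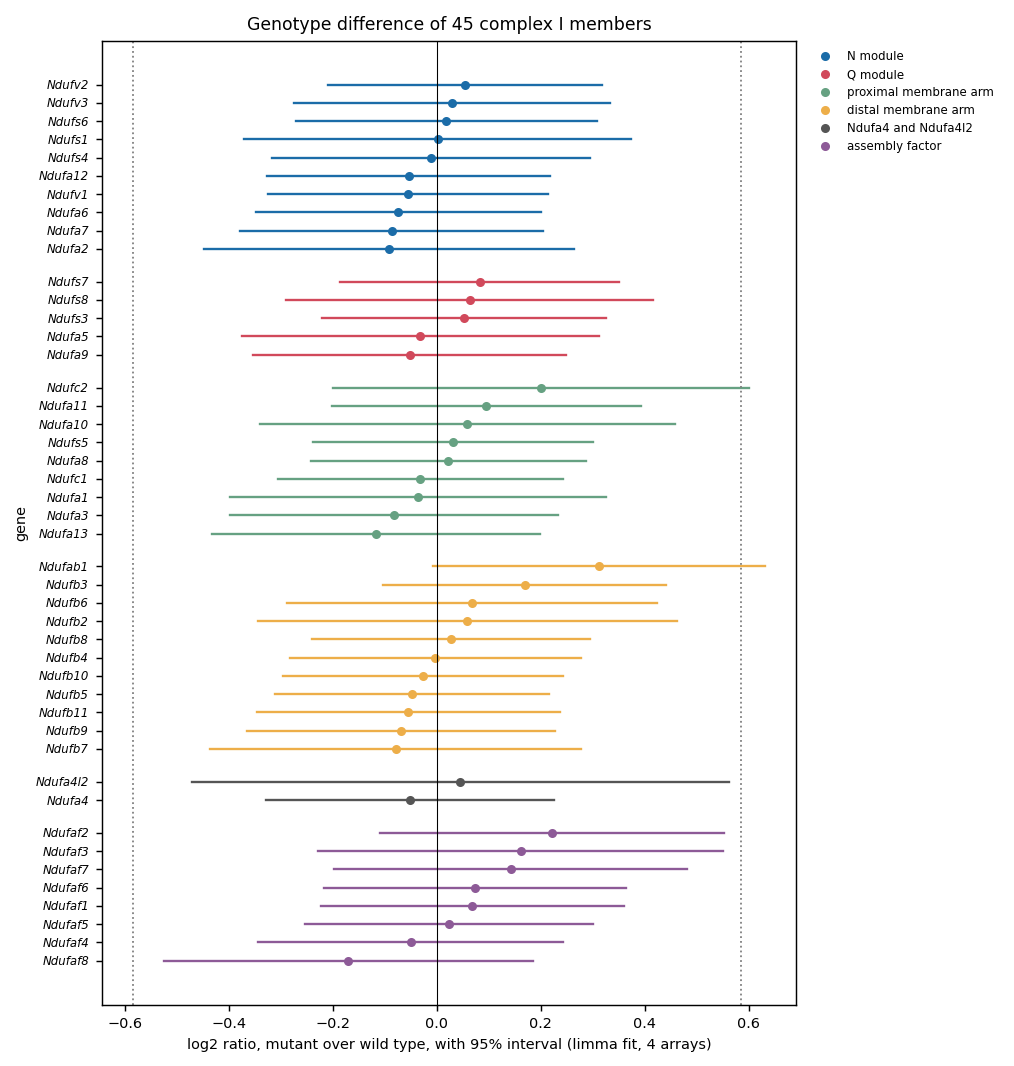
Log2 ratio of mutant over wild type for 45 complex I members (y axis, by structural group), as the limma estimate (point) with its 95% interval (line) from 4 arrays, fitted with a dye term. All 45 intervals cross 0, and those of Ndufab1 and Ndufc2 alone pass the dotted lines, which mark 1.5-fold.

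The N module holds the NADH-oxidising end of the enzyme, and its 10 measured members had a median log2 ratio of -0.03, between -0.09 and 0.05. Ndufv1, which binds NADH and the flavin cofactor, stood at 17.07, 16.86, 17.11 and 16.74 in mutant hearts 1 to 4, against 17.06, 17.04, 16.97 and 16.94 in wild-type hearts 1 to 4. Ndufv2, which carries an iron-sulfur cluster beside it, stood at 15.74, 15.36, 15.84 and 15.66 in mutant hearts, against 15.52, 15.46, 15.68 and 15.72 in wild-type hearts. For both genes the mutant values reached above and below the wild-type values, and the ratios were -0.06 ± 0.10 for Ndufv1 and 0.05 ± 0.10 for Ndufv2 (SE, 4 arrays). Ndufs1, the large iron-sulfur subunit, was at 15.69, 15.03, 15.69 and 15.47 in mutant hearts, against 15.38, 15.48, 15.62 and 15.39 in wild-type hearts. Mutant heart 2 was the lowest of the 8, and the ratio was 0.00 ± 0.14 (SE).

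Among the accessory N-module subunits, Ndufa2 had the lowest ratio, with levels of 16.73, 16.93, 16.98 and 16.64 in mutant hearts and 17.12, 16.82, 16.91 and 16.79 in wild-type hearts (ratio -0.09 ± 0.13, SE). Ndufa7 was at 15.36, 15.51, 15.69 and 15.65 in mutant hearts and at 15.74, 15.46, 15.79 and 15.55 in wild-type hearts (-0.09 ± 0.11). The groups overlapped in both genes. Ndufa6, a protein of the LYR family that docks the acyl carrier protein Ndufab1 on the complex, was at 14.91, 14.87, 15.08 and 14.95 in mutant hearts and at 15.11, 14.93, 15.10 and 14.97 in wild-type hearts. Its mutant value was below its wild-type partner on all 4 arrays, by ratios of -0.19, -0.06, -0.02 and -0.02, for a mean of -0.07 ± 0.10 (SE).

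The Q module carries electrons along iron-sulfur clusters to the ubiquinone site. Its 6 members had a median ratio of 0.01, between -0.05 and 0.08. Ndufs8, an iron-sulfur subunit, was at 13.18, 12.19, 13.20 and 12.80 in mutant hearts and at 12.51, 12.87, 12.74 and 13.00 in wild-type hearts. Ndufs7 was at 16.85, 16.46, 16.89 and 16.47 in mutant hearts and at 16.59, 16.64, 16.54 and 16.57 in wild-type hearts. In both genes mutant hearts 1 and 3 lay above every wild-type heart and mutant heart 2 lay below every one. Ndufs3 was at 16.05, 15.72, 16.15 and 16.01 in mutant hearts and at 15.86, 15.89, 15.96 and 16.01 in wild-type hearts. The genotype ratios were 0.06 ± 0.13 for Ndufs8, 0.08 ± 0.10 for Ndufs7 and 0.05 ± 0.10 for Ndufs3 (SE), each smaller than the SD among the mutant hearts.

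**Figure D2:**
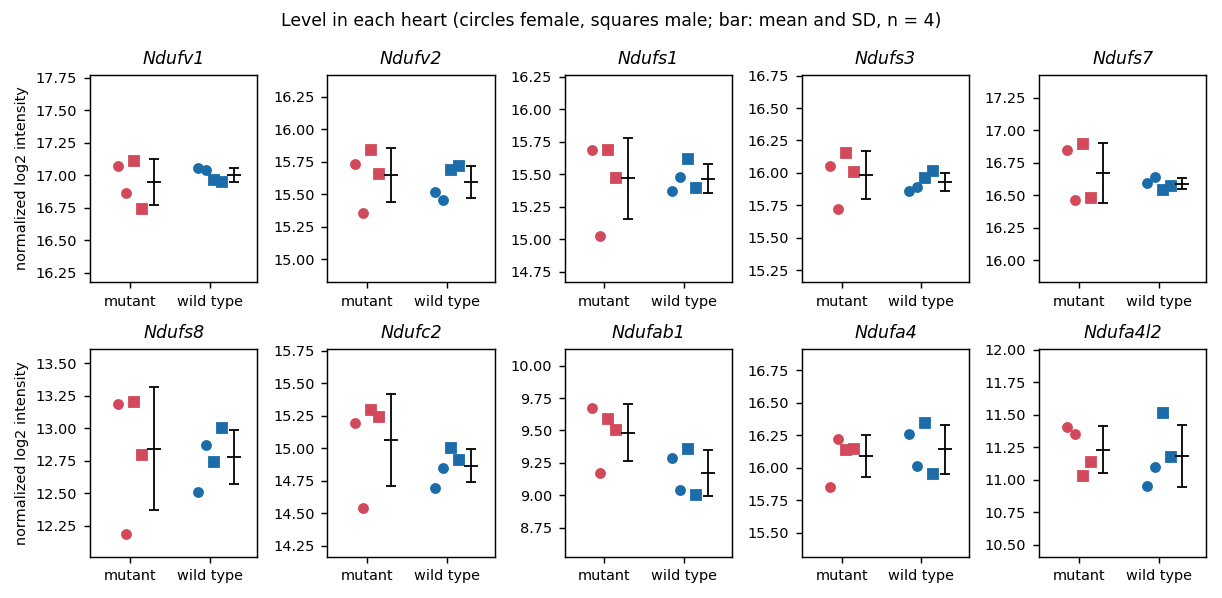
Normalized log2 intensity of 6 nuclear core subunits, Ndufc2, Ndufab1, Ndufa4 and Ndufa4l2 (y axes, each of the same height) in 4 mutant hearts (left) and 4 wild-type hearts (right), circles female and squares male, with mean and SD. Mutant points spread more than wild-type points in all 6 core subunits, and mutant heart 2 lies lowest in 5 of the 6.

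In the membrane arm, the 9 proximal members had a median ratio of 0.02, between -0.12 and 0.20. Ndufc2, a small membrane subunit, stood at 15.20, 14.54, 15.29 and 15.24 in mutant hearts, against 14.70, 14.85, 15.00 and 14.91 in wild-type hearts. Mutant hearts 1, 3 and 4 exceeded every wild-type heart while mutant heart 2 lay below them all, which gave a ratio of 0.20 with a 95% interval of -0.20 to 0.60. Ndufa13, also known as Grim19, was at 18.04, 17.59, 17.92 and 17.58 in mutant hearts and at 18.11, 17.85, 17.64 and 18.00 in wild-type hearts (-0.12 ± 0.12, SE). Ndufa11 was at 14.43, 13.81, 14.49 and 14.16 in mutant hearts and at 14.05, 14.16, 14.09 and 14.20 in wild-type hearts (0.10 ± 0.11), again with mutant hearts 1 and 3 highest and mutant heart 2 lowest.

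The 11 measured members of the distal arm had ratios between -0.08 and 0.31. Ndufb3, an accessory subunit, stood at 15.45, 15.09, 15.51 and 15.37 in mutant hearts, against 15.12, 15.09, 15.27 and 15.24 in wild-type hearts, for a ratio of 0.17 ± 0.10 (SE) with groups that overlapped through mutant heart 2. Ndufb9, another LYR protein, was at 17.22, 17.14, 17.26 and 17.03 in mutant hearts and at 17.33, 17.15, 17.17 and 17.27 in wild-type hearts (-0.07 ± 0.11).

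Ndufab1 had the highest ratio and the smallest genotype p of the 46. It encodes the mitochondrial acyl carrier protein, a subunit of complex I that also serves fatty acid synthesis, lipoic acid synthesis and iron-sulfur cluster assembly in mitochondria. Its level was 9.68, 9.17, 9.59 and 9.50 in mutant hearts 1 to 4, against 9.29, 9.04, 9.36 and 9.00 in wild-type hearts 1 to 4. This signal, from 1 probe, was dim for a subunit, where the median level was 15.89 in mutant hearts and 15.84 in wild-type hearts. The mutant heart was higher on all 4 arrays, by 0.39, 0.13, 0.23 and 0.50, although the groups overlapped through mutant heart 2. The mean ratio was 0.31 ± 0.12 (SE), with a 95% interval of -0.01 to 0.63, an unadjusted p of 0.054 (0.039 to 0.25 over the alternatives) and an adjusted p of 1.00 (limma, Benjamini-Hochberg), so it was not called. Only Ndufab1 and Ndufa6 of the 46 kept 1 sign on all 4 arrays, where 4.89% of all features did. That count was 1 with processed signals, 1 with the deposited log2 matrix and 0 with median centring, which also turned the mean ratio of Ndufa6 to 0.03.

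A pair of related genes stands apart in function. Ndufa4 was first assigned to complex I and is now counted as a subunit of complex IV. It was at 15.85, 16.22, 16.14 and 16.14 in mutant hearts and at 16.26, 16.01, 16.34 and 15.95 in wild-type hearts (-0.05 ± 0.10, SE). Ndufa4l2 encodes a related protein known for its induction by hypoxia, and it was at 11.40, 11.36, 11.02 and 11.13 in mutant hearts and at 10.96, 11.09, 11.51 and 11.17 in wild-type hearts (0.05 ± 0.19). Neither gene separated the genotypes, and Ndufa4l2 is taken up again with the sexes.

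The mean level of the 8 assembly factors was 11.01, 10.57, 11.15 and 10.99 in mutant hearts 1 to 4, against 10.76, 10.81, 10.93 and 11.00 in wild-type hearts 1 to 4, and the groups overlapped. Ndufaf2, a paralog of the subunit Ndufa12 that acts late in assembly, stood at 11.50, 10.61, 11.53 and 11.16 in mutant hearts, against 10.70, 10.98, 11.03 and 11.20 in wild-type hearts. Its ratio of 0.22 ± 0.12 (SE) was the highest of the 8, and its array ratios were 0.80, -0.38, 0.50 and -0.04. Ndufaf3, which acts with Ndufaf4 on the Q module, was at 10.67, 9.81, 10.84 and 10.70 in mutant hearts and at 10.17, 10.32, 10.30 and 10.59 in wild-type hearts (0.16 ± 0.15). In both genes mutant heart 2 was the lowest of the 8 hearts, and mutant hearts 1 and 3 lay above every wild-type heart. In Ndufaf3 mutant heart 4 also lay above every wild-type heart. Ndufaf7, a protein methyltransferase of mitochondria, was at 11.60, 11.11, 11.39 and 11.52 in mutant hearts and at 11.31, 11.12, 11.44 and 11.19 in wild-type hearts (0.14 ± 0.13). Ndufaf8 was the lowest of the 8 by its ratio, at 10.08, 10.17, 10.56 and 10.19 in mutant hearts and 10.48, 10.40, 10.43 and 10.37 in wild-type hearts (-0.17 ± 0.13). Mutant hearts 1, 2 and 4 were below all wild-type hearts of Ndufaf8 and mutant heart 3 was above them. Of 15 further assembly factors with other names, such as Acad9 and Ecsit, 12 were measured, 8 with a ratio above 0 and 4 below, with a median of 0.02 and 0 called. The smallest p among these belonged to Aifm1, Tmem70 and Tmem126b, with ratios of 0.19 ± 0.13, 0.14 ± 0.14 and 0.22 ± 0.21 (SE).

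Complex I levels varied more among mutant hearts than among wild-type hearts. The SD over 4 mutant hearts was larger than the SD over 4 wild-type hearts in 38 of 46 members, or 82.6%, where 59.0% of all features showed that order. The median SD of a member's log2 level was 0.21 in mutant hearts and 0.12 in wild-type hearts. Over all features it was 0.22 in mutant hearts and 0.19 in wild-type hearts. The spread of members was thus near that of all features among mutant hearts and smaller among wild-type hearts. In the core subunits 7 of 7 and in the Q module 6 of 6 had the larger SD in mutant hearts. The mean level of the 38 subunits was 15.66, 15.38, 15.76 and 15.48 in mutant hearts 1 to 4, against 15.55, 15.53, 15.60 and 15.58 in wild-type hearts 1 to 4. On this scale mutant hearts 1 and 3 were above all wild-type hearts and mutant hearts 2 and 4 below all of them. With processed signals and with the authors' deposited log2 matrix only mutant heart 3 stayed above and only mutant heart 2 below all wild-type hearts, while mutant hearts 1 and 4 lay among them. Mutant heart 2 was the lowest of the 8 hearts in 23 of 46 members, where it was lowest in 18.1% of all features. Mutant heart 3 was below a member's own mean over the 8 hearts in 2 of 46 members, while mutant heart 2 was below it in 38. This comparison of spread was chosen after the values were seen and has no test. The count was 38 with the scanner's processed signals and 40 with the authors' deposited log2 matrix, but 25 of 46 without array 2, where 53.5% of all features showed the same order.

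**Figure D3:**
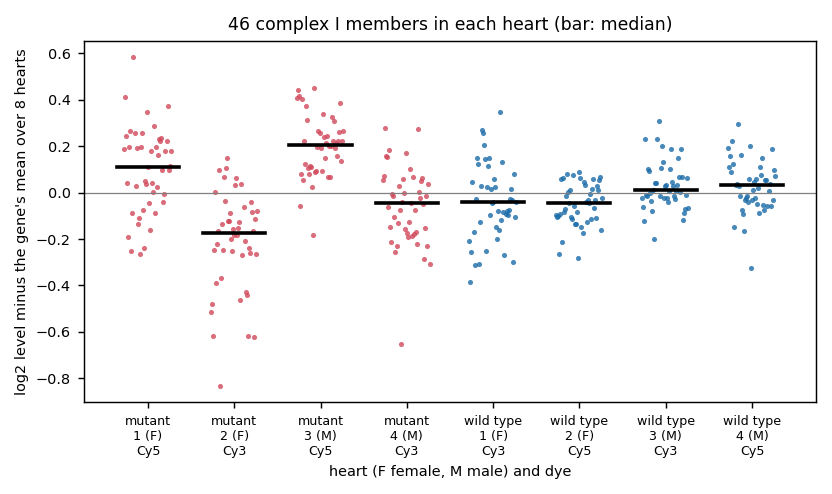
Log2 level of each of 46 complex I members minus its own mean over 8 hearts (y axis), in 4 mutant and then 4 wild-type hearts with sex and dye (x axis), with the median as a bar. The medians are 0.11, -0.17, 0.21 and -0.05 in mutant hearts 1 to 4 and stay between -0.04 and 0.03 in wild-type hearts.

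The same pattern appears in the ratios, where it followed the dye orientation. The median log2 ratio of the subunits was 0.16, -0.16, 0.16 and -0.10 on arrays 1 to 4, while that of all features was 0.04, 0.02, -0.03 and -0.01. Of 46 members 31, 11, 40 and 11 had a ratio above 0 on arrays 1 to 4. The subunit medians kept these signs with processed signals (0.10, -0.18, 0.22 and -0.07), but with the deposited log2 matrix array 1 turned negative (-0.07, -0.30, 0.42 and -0.02). The heart in Cy5 was the higher of its pair on all 4 arrays in 21 of 46 members, 18 subunits and 3 assembly factors, where 11.5% of all features did so. The count was 15 with processed signals, 13 with the deposited log2 matrix and 45 with median centring in place of loess, where the median of all features also followed the dye, at 0.66, -0.61, 0.65 and -0.30. With loess, all 6 members of the Q module were among the 21, although the ratio of Ndufs3 on array 4 was only -0.004. The heart in Cy3 was the higher on all 4 arrays in Ndufa4, Ndufa7 and Ndufaf4, 3 of 46, against 13.1% of all features.

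**Figure D4:**
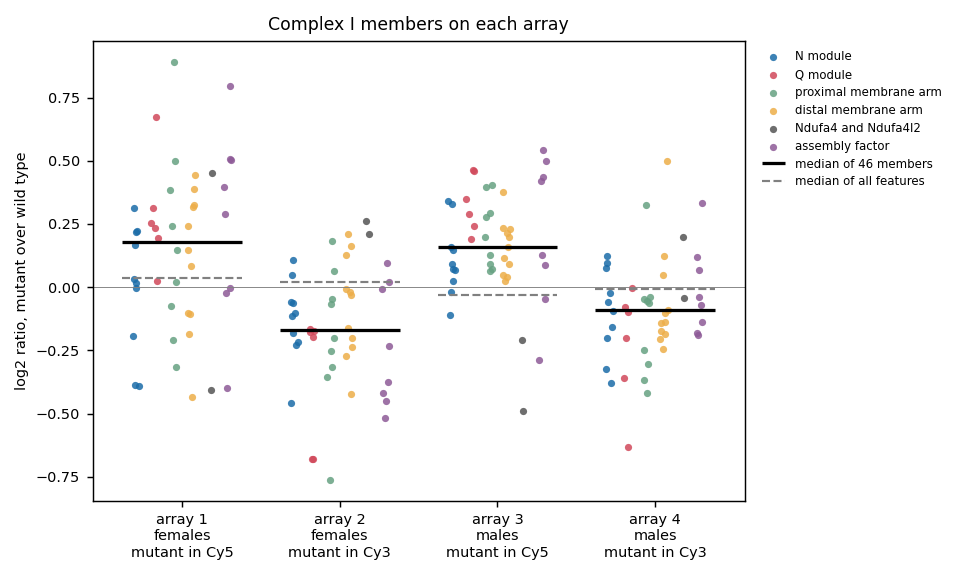
Log2 ratio of mutant over wild type of each complex I member (points, coloured by structural group) on the 4 arrays, with the median of 46 members as a solid bar and that of all features as a dashed bar. The solid bars lie at 0.18, -0.17, 0.16 and -0.09, alternating with the dye of the mutant heart.

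The separate channels show in which genotype the hearts labelled with Cy5 differed from those labelled with Cy3. The median Cy5 minus Cy3 difference of the 38 subunits was 0.27 among mutant hearts and -0.00 among wild-type hearts. It was above 0 in 35 of 38 subunits among mutant hearts and in 19 of 38 among wild-type hearts. For the 8 assembly factors the median difference was 0.34 among mutant hearts and 0.16 among wild-type hearts. For the 8 ventricular myocyte markers it was 0.33 among mutant hearts and 0.19 among wild-type hearts. Over all features the mean of the Cy5 hearts was the higher in 51.2% among mutant hearts and in 45.0% among wild-type hearts. For Ndufa10, a subunit of the nucleoside kinase family, array ratios were 0.89, -0.76, 0.41 and -0.30, with levels of 14.22, 12.80, 14.01 and 13.63 in mutant hearts and 13.33, 13.57, 13.60 and 13.93 in wild-type hearts. In the fit, the dye term of Ndufa10 was 0.59 ± 0.15 (SE) and that of Ndufs8 was 0.50 ± 0.13, the highest of the 46. At an unadjusted p under 0.05 the dye term was called in 6 of 46 members, the others being Ndufaf1, Ndufaf2, Ndufaf6 and Ndufa5, against 9.90% of all features, and in 0 of 46 after adjustment, against 0.00% (limma). Dye and heart cannot be told apart here, since each heart was labelled once.

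Of the 8 genes with 2 probes, 4 (Ndufa5, Ndufb4, Ndufb5 and Ndufv3) had the Cy5 heart higher on all 4 arrays by the brighter probe, and 0 of these 4 by the other probe, while Ndufb6 had it by its second probe alone. Ndufb6 had array ratios of 0.45, -0.42, 0.20 and 0.05 on its brighter probe and 0.33, -0.32, 0.18 and -0.17 on the other. Ndufv3 had 0.22, -0.06, 0.33 and -0.38 on its brighter probe and 0.21, -0.21, 0.34 and 0.03 on the other. The mean log2 intensity of the brighter and the other probe was 14.64 and 14.38 in Ndufb6. In Ndufv3 it was 17.04 and 8.95, so the second probe was far dimmer. In both Ndufb6 and Ndufv3 the probes disagreed in sign on array 4. The alternation of Ndufa5 was present on its brighter probe, with 0.23, -0.20, 0.46 and -0.63, and not on the other, with 0.04, -0.01, 0.02 and 0.06.

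Mean levels of the measured atrial myocyte and adipocyte markers differed between the hearts and were highest in mutant heart 2. The mean level of the 7 measured atrial markers was 9.05, 13.94, 9.20 and 12.60 in mutant hearts 1 to 4, against 9.75, 12.85, 8.83 and 9.70 in wild-type hearts 1 to 4. Mutant hearts 2 and 4, with the lowest subunit means, had the highest and the third highest atrial level, while wild-type heart 2 had the second highest atrial level and a subunit mean of 15.53, close to the other wild-type hearts. The 3 measured adipocyte markers, of 6 listed, had mean levels of 11.00, 14.04, 10.40 and 12.63 in mutant hearts, against 11.30, 13.36, 10.65 and 11.19 in wild-type hearts. These were Cfd, Fabp4 and Retn, while Adipoq, Plin1 and Lep had a probe but were not measured. Array ratios were unlike, at -1.05, 0.91, 0.95 and 3.76 in Cfd, -0.39, 0.19, -0.22 and 0.27 in Fabp4, and 0.56, 0.92, -1.48 and 0.26 in Retn. Ventricular myocyte markers had array medians of 0.19, -0.25, 0.30 and -0.34, of the same signs as complex I. Erythroid markers, 6 measured, had mean levels of 16.76, 14.11, 14.35 and 15.23 in mutant hearts, against 14.39, 16.55, 15.24 and 14.87 in wild-type hearts. By this mean the mutant heart was the higher on arrays 1 and 4 and the lower on arrays 2 and 3. On array 4 the markers were split, with 3 of 6 higher in the mutant heart and a median ratio of 0.03. Fibroblast, endothelial and macrophage markers had mean levels of 12.41 to 13.07, 11.08 to 11.20 and 9.80 to 10.05 in mutant hearts, against 12.65 to 12.96, 11.01 to 11.19 and 9.65 to 10.06 in wild-type hearts. The part of tissue make-up in the complex I levels was not tested, and in whole tissue fewer myocytes and less RNA per myocyte cannot be told apart.

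Genes of complexes III, IV and V, taken as lists, had array medians that alternated in the same way, and those of complex II did not. The 43 measured nuclear genes of complexes II to V had a median genotype ratio of 0.00, with 22 above 0, 21 below and 0 called, and their array medians were 0.22, -0.21, 0.16 and -0.16. The Cy5 heart was higher on all 4 arrays in 23 of these 43, and the SD was larger in mutant hearts in 33 of 43. Whether complex I differed from these complexes was not tested. The array medians of complex II were 0.31, -0.19, 0.01 and 0.08 over its 4 genes. Of these 4, the Cy5 heart was higher on all 4 arrays in 2 and the Cy3 heart in 1, so the medians cover genes that went different ways. Single genes differed, with array ratios of 0.83, -0.57, 0.47 and -0.14 in Uqcrfs1, the Rieske iron-sulfur protein of complex III. Ratios were -0.28, -0.26, 0.11 and -0.32 in Cox7a2 of complex IV. In complex II they were 0.28, -0.20, 0.12 and -0.08 in Sdha, and -0.05, 0.06, -0.09 and 0.24 in Sdhc, a membrane anchor.

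Ratios of the 46 members were more alike between arrays of one dye orientation than between arrays of one sex. Arrays 1 and 3, both with the mutant in Cy5, had r = 0.50 over the 46 members, and arrays 2 and 4, both with the mutant in Cy3, had r = 0.16. Arrays 1 and 2, both of females, had r = -0.66, and arrays 3 and 4, both of males, had r = -0.33. Arrays that differed in both had r = 0.07 for 1 and 4 and r = -0.60 for 2 and 3. These correlations run across genes that share arrays and labelling, and are given as a description. Over all features r was 0.03 for arrays 1 and 2, -0.32 for 1 and 3, -0.49 for 1 and 4, -0.69 for 2 and 3, -0.16 for 2 and 4, and 0.31 for 3 and 4, and the direction of each ratio was kept because the labels state the dyes.

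No complex I gene had a genotype ratio called as different between the sexes. For the female minus male difference 0 of 46 members were called (limma, adjusted p under 0.05), where 9.34% of all features were, and 0 of 46 had an unadjusted p under 0.05, against 16.6%. In females alone 0 of 46 were called, against 0.00918% of features, and in males alone 0 of 46, against 3.38%. The median ratio of the subunits was 0.00 in females and 0.00 in males, and the median difference was -0.08, with -0.60 under median centring and -0.34 with the deposited log2 matrix. In the main fit the median difference was -0.04 over all features and -0.10 over the features with a gene name. Each sex held 2 arrays, and this fit had 1 residual degree of freedom.

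Ndufa4l2 had the widest difference between the sexes. In females it stood at 11.40 and 11.36 in mutant hearts, against 10.96 and 11.09 in wild-type hearts, and in males at 11.02 and 11.13 in mutant hearts, against 11.51 and 11.17 in wild-type hearts. Both female mutants were above both female wild types and both male mutants below both male wild types. The ratio was 0.36 ± 0.20 in females and -0.26 ± 0.20 in males (SE), and the difference of 0.62 ± 0.28 (SE) had an unadjusted p of 0.052 and an adjusted p of 0.307 (limma, Benjamini-Hochberg). The difference was 0.19 with median centring, 0.30 without array 1 or without array 3, and 0.94 without array 2 or without array 4. With the dye term, leaving out array 1 or array 3 compares array 2 with array 4. Leaving out array 2 or array 4 compares array 1 with array 3, so the equal values follow from the fit. Ndufa4l2 was the only one of 46 members with both female ratios above 0 and both male ratios below, a pattern that 16.9% of all features showed. The next differences above 0 were 0.12 in Ndufaf4 and 0.11 in Ndufc1, a small membrane subunit. Those below 0 with the smallest p were -0.34 in Ndufaf3 and -0.29 in Ndufaf8, with adjusted p-values of 0.732 and 0.795 (limma).

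**Figure D5:**
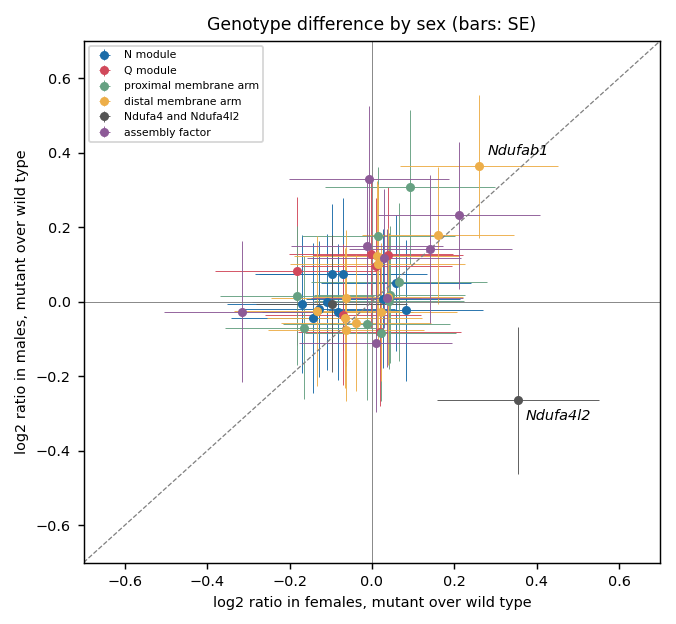
Log2 ratio of mutant over wild type in females (x axis, 2 arrays) and in males (y axis, 2 arrays) for 46 complex I members, with SE bars from the limma fit and the line of equal ratios. Ndufa4l2 lies at 0.36 in females and -0.26 in males, and Ndufab1 is above 0 in both.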

How the data were processed

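The 4 arrays lay on 1 slide, and the authors read their single scan with Feature Extraction 10.7.3.1, whose grid names build mm9, per the file headers. The deposited intensity values are median spot and background signals, uncorrected per the file headers. Deposited processed intensity values and the authors' deposited log2 matrix, whose normalization is not given in the sources used here, served as alternatives. No sample column was left unused (0).

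Background was corrected by normexp (offset 50), and ratios by loess, in which control and non-uniform spots had no weight, using limma 3.58.1 and R 4.3.3. Probes well above background in at least 4 of 8 samples were kept (28528). Accessions were named through RefSeq (GRCm38.p6), where 21865 of 23171 matched, and the brightest probe stood for a gene. Mutant over wild-type ratios of 21792 features were fitted by limma (lmFit, eBayes) with a probe-specific dye term, and with a genotype by sex term for the sexes. The tests, 2-sided, were adjusted by Benjamini-Hochberg across every feature at 0.05 and checked on simulated data. Levels come from separate channels after Aquantile normalization and have no absolute unit, so levels of different genes are not compared as amounts. Replicates are separate animals per the labels.

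The labels pair the hearts by array. Deviations of the pair from their genotype means correlated at -0.49, -0.11, -0.39 and 0.51 on arrays 1 to 4. Values by heart are given for core subunits, Ndufab1, Ndufa4 and Ndufa4l2. They are also given for up to 3 members with the smallest p per structural group and 4 such assembly factors. For the sexes 3 members per direction were taken, and of these Ndufaf4 and Ndufc1 are given by their difference only. One gene of the list is counted but not reported by name here. Ndufa10 and the second probes were chosen after their values were seen. Members and lists were chosen with earlier results of these data known. Alternatives were the background correction, signal, normalization, filter, probe rule, block, dye and sex terms, and leaving out each array.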

Additional observations from a re-analysis of the deposited data

Results flagged for a closer look

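Of 94 groups of 4 levels, 5 held a heart that stood far from the other 3 by Dixon's criterion, and chance flags about 1 in 20 groups. The 4 described here belong to 4 genes. In mutant hearts, Ndufaf3 was at 9.81 in heart 2, against 10.67 to 10.84 in the others, and Ndufc2 was at 14.54 in heart 2, against 15.20 to 15.29. In wild-type hearts, Ndufs4, an accessory N-module subunit, was at 15.20 in heart 3, against 14.94 to 14.98 in the others, and Ndufs6, which lies between the N and Q modules, was at 17.12 in wild-type heart 3, against 17.25 to 17.27. Both mutant values belong to the female heart that was lowest in 23 of 46 members.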

How the results depend on the processing

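The number of complex I members called between the genotypes was 0 under each alternative run. For the sexes it was 0 under each alternative in which such calls were made. Calls for the sexes were not made with an array left out or under the sex by genotype alternative. The subunit median lay between -0.03 and 0.09 and that of the assembly factors between 0.00 and 0.22 over the alternatives, both highest with median centring, where the median of all features was 0.08 and 43 of 46 members were above 0, against 24 of 46 with loess. Of 360 values for 24 named members under 15 alternatives, 340 kept their sign and 0 were called, and Ndufa6 turned to 0.03 with median centring. Pus1 was -2.83 with processed signals, -2.84 with the deposited log2 matrix, and -1.80 with median centring, where it was called (adjusted p = 0.0244). Its ratio of -1.85 was also called without the replicate block (adjusted p = 0.0256) and with a sex by genotype term (adjusted p = 0.00577, limma). Over all alternatives its adjusted p ran up to 1.00. The replicate block changed no complex I call, the subunit median being -0.01 without it. The median difference between sexes of the subunits was -0.60 with median centring and -0.34 with the deposited matrix. Leaving out an array moved the count of members with a larger SD among mutant hearts to between 25 and 41. Features called for the sex difference over the whole array were 2035, but 0 with processed signals, median centring, the deposited matrix, no block or no dye term; the causes were not tested.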
